A study of Mus musculus with 13 samples.

Results

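The 10 genes described here code for ligands of the tumour necrosis factor (TNF) superfamily. They are Tnf, Lta, Ltb, Cd40lg, Tnfsf4, Tnfsf8, Tnfsf9, Tnfsf10, Tnfsf11 and Tnfsf14, and they were taken by symbol from a table of 55774 gene entries. All 10 were found, and all 10 passed the filter on low counts that left 15781 genes for testing. RNA-seq was done on CD4+ T cells from the spleen of female NOD/ShiLtJ mice with the transgene Tg(TcraBDC2.5,TcrbBDC2.5)1Doi, which gives T cells a single receptor (BDC2.5) for an islet beta-cell antigen. In 4 libraries the naive T cells were profiled untreated (cells alone). In 4 libraries they had spent 96 hours with islet macrophages of NOD mice given control buffer (control-macrophage co-culture), and in 5 libraries with islet macrophages of NOD mice given a single low dose of streptozotocin (STZ-macrophage co-culture). STZ is a toxin that enters beta cells and kills them.

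Donors of macrophages received the injection at 4 weeks of age and gave their islets 10 days later, at 5.5 weeks. The macrophages were enriched with magnetic beads, and the labels give no purity for them. T cells were recovered by a sort for live cells with CD45, Thy1.2 and CD4 on their surface. The labels call the replicates biological and name 2 batches. Day 1 held all cells-alone libraries, control-macrophage replicates 1, 2 and 4 and STZ-macrophage replicates 1 and 5. Day 2 held control-macrophage replicate 3 and STZ-macrophage replicates 2, 3 and 4. Whether the untreated cells were kept in culture is not in the labels, so culture and macrophages cannot be told apart in a comparison with them. In bulk RNA, fewer cells of a type and less RNA per cell cannot be told apart either.

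TNF superfamily ligands are mostly trimeric proteins of the cell surface that signal to a neighbouring cell through receptors of the TNF receptor superfamily. T cells make many of them after their antigen receptor is engaged, in part through the transcription factors NFAT, NF-kB and AP-1. Some act on antigen-presenting cells (CD40 ligand on CD40), some on other T cells (OX40 ligand, 4-1BB ligand, LIGHT), some on tissue cells (TNF, lymphotoxins, TRAIL), and RANK ligand is best known for driving osteoclast formation. TNF and lymphotoxin are among the cytokines studied in islet inflammation.

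The total count per library was 17.3 to 61.3 M, and 15252 to 21025 gene entries had a count. T cell genes were abundant throughout, since Cd4 was at 514.4 to 1225 CPM (counts scaled to a common library size) and Cd3e at 920.4 to 2174 CPM. The summed level of 25 macrophage markers was 145.1 to 346.5 CPM in the cells alone, 342.6 to 649.8 in the control-macrophage co-culture and 233.2 to 484.8 in the STZ-macrophage co-culture. Most of that sum was Ctss and Cd74, which other antigen-presenting cells and T cells can also express. Lyz2, an abundant macrophage transcript, was at 0 to 0.15 CPM in the cells alone and at 1.205 to 45.63 CPM in the co-cultures. Of 20 macrophage markers tested, 6 were higher with control and 8 with STZ macrophages than in the cells alone, and 0 were lower. The other 14 and 12 were not called, and of all genes 23.1% and 20.8% were called higher. Some markers, such as Cd14 and Tlr4, had no counts in the cells alone and could only be called higher. The part of macrophage RNA in the ligand values was not tested. B cell markers summed to 721.5 to 1674, 593.8 to 766.4 and 149.1 to 196.9 CPM in the same order of groups, nearly all of it Ighm. The sum over islet endocrine markers was 156.4 CPM in STZ-macrophage replicate 2 and 115.8 CPM in replicate 4, against 0.6927 to 3.329 CPM in the other 3 and 1.727 CPM or less in the other 2 groups.

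Upstream sequence is shown for Tnf, Tnfsf11 and Tnfsf14, which were higher in both co-cultures than in the cells alone, and for Ltb, which varied most between libraries of a group. The sequences come from RefSeq for GRCm38.p6, whose reference strain is not NOD, and 7 of the 10 members had an entry. Capitals mark letters that match the NFAT core GGAAA, the AP-1 site TGANTCA or the NF-kB consensus, each searched on both strands, so that TTTCC is the NFAT core on the opposite strand. The NF-kB match in Ltb begins with the same letters as its NFAT core match. Among 32851 promoter windows of 250 bases, the length of the first 3 shown, 55.6% held an NFAT core, 6.75% an AP-1 site, 7.25% the NF-kB consensus and 7.59% the TATA box core TATAAA, which was searched on the gene's strand and is not in capitals. The first 3 windows are on the minus strand, at chr17:35202008-35202257 for Tnf, chr14:78308044-78308293 for Tnfsf11 and chr17:57194182-57194431 for Tnfsf14, and the Ltb window is on the plus strand at chr17:35194257-35194438. The Ltb window has 182 bases, because it was ended where the annotated gene begins, upstream of the RefSeq start site.
Tnf: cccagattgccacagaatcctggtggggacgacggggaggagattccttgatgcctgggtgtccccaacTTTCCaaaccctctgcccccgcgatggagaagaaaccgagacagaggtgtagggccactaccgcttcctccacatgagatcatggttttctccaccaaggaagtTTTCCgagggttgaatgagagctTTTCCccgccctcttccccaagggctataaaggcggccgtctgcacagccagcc
Tnfsf11: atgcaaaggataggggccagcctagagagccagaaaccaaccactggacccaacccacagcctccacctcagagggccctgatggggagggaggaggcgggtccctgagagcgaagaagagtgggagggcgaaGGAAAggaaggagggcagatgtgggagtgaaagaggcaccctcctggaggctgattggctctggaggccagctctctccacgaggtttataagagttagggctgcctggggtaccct
Tnfsf14: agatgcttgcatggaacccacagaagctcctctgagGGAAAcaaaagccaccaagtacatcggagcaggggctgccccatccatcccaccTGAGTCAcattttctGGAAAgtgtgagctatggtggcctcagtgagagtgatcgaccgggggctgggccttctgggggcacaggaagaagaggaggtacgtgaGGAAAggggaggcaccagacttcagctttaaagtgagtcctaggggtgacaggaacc
Ltb: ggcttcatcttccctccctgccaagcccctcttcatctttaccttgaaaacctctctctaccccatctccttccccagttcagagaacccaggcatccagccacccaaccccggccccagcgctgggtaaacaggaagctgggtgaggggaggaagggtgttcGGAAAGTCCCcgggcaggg
The Tnf window held 3 NFAT cores, at -181 to -177, -77 to -73 and -54 to -50 from the RefSeq start site, and the TATA box core at -29 to -24. The Tnfsf14 window held 3 NFAT cores and an AP-1 site, at -160 to -154. The Tnfsf11 window held 1 NFAT core, at -117 to -113. The Ltb match to the NF-kB consensus lay at -87 to -78, counted from the RefSeq start site and not from the end of the window printed. Each match describes letters only.

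The members Ltb, Tnf and Lta lie side by side on chromosome 17 of GRCm38. Ltb is at chr17:35194439-35196320 on the plus strand, Tnf at chr17:35199381-35202007 and Lta at chr17:35203165-35205351, both on the minus strand. Between Ltb and Tnf lie 3060 bases, and between Tnf and Lta 1157 bases. Tnfsf9 (chr17:57105325-57107757, plus strand) and Tnfsf14 (chr17:57189492-57194177, minus strand) are on the same chromosome, 81734 bases apart. The other members are Cd40lg (chrX:57212143-57224042), Tnfsf4 (chr1:161395409-161418410), Tnfsf8 (chr4:63831308-63861347), Tnfsf10 (chr3:27317028-27342427) and Tnfsf11 (chr14:78277445-78308043). Only Tnfsf9 shares exon sequence with another annotated gene, for 14.88% of its exonic bases. That gene, the antisense Gm11110, had 54.42 to 427.8 estimated counts per library, and reads of the pair cannot be told apart without strand.

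The order of the ligands within a group can be read only per length, as CPM per kilobase of exon. In the cells alone Cd40lg led at 234.3 ± 82.77 CPM per kb (SD, n = 4). Ltb followed at 137.5 ± 232.8, then Tnfsf8 at 17.44 ± 8.55. The ranges of these 3 neighbours overlapped from 1 to the next. In the control-macrophage co-culture Lta led at 395.4 ± 169.2 CPM per kb (SD, n = 4) and Cd40lg was second at 191 ± 78.32, with overlapping ranges. Next stood Tnfsf8 at 54.12 ± 6.899 and Tnf at 47.18 ± 14.31, which overlapped each other and lay below every Cd40lg value. In the STZ-macrophage co-culture Lta was at 541.6 ± 253 CPM per kb (SD, n = 5), with its lowest library above the highest Cd40lg library. Cd40lg there was at 147.4 ± 47.64. Tnfsf11 and Tnfsf14 were the lowest in all 3 groups, at 0.8284 to 1.454 CPM per kb on average in the co-cultures and at 0 in the cells alone.

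**Figure D1:**
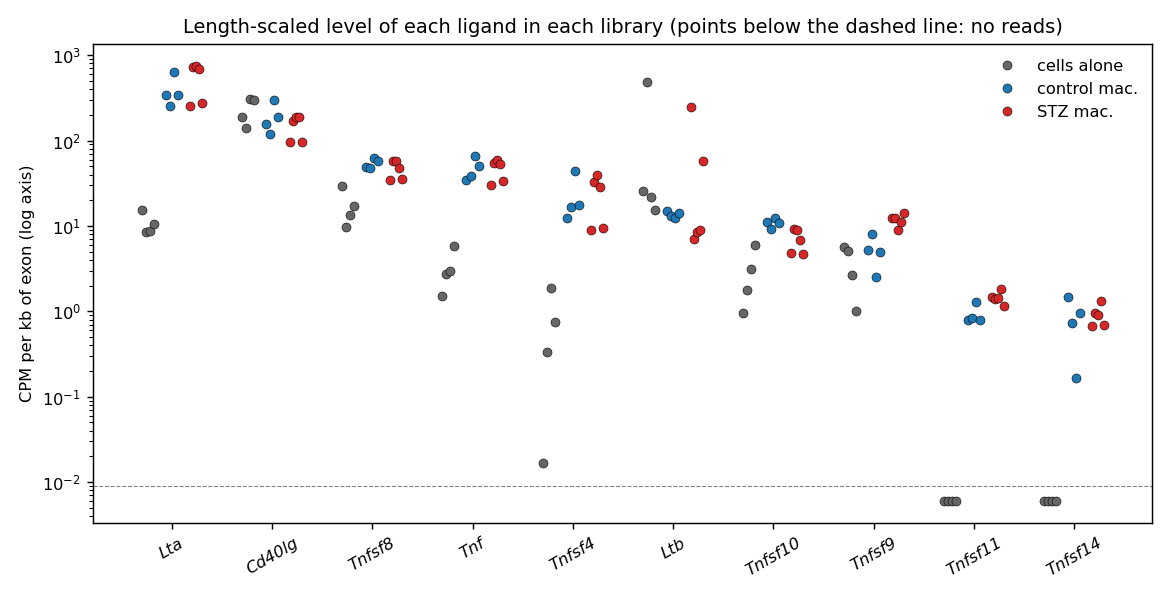
CPM per kb of exon (log axis) of the 10 ligands, 1 point per library, for cells alone (grey), control-macrophage (blue) and STZ-macrophage co-culture (red); points below the dashed line are libraries with no reads. Lta averaged 10.76 CPM per kb in the cells alone and led in both co-cultures, and Tnfsf11 and Tnfsf14 had no reads in the cells alone.

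Co-culture with either kind of macrophage was compared with the cells alone first, which shows how the ligands differ between untreated and co-cultured T cells. In the control-macrophage co-culture 7 of the 10 ligands were higher (Tnf, Lta, Tnfsf4, Tnfsf8, Tnfsf10, Tnfsf11 and Tnfsf14) and 0 were lower, with the same counts by DESeq2; Cd40lg was on the lower side at an unadjusted p of 0.03. Over all genes tested, 23.1% were called higher and 22% lower in this comparison. In the STZ-macrophage co-culture 7 of 10 were higher (Tnf, Lta, Tnfsf4, Tnfsf8, Tnfsf9, Tnfsf11 and Tnfsf14) and 1, Cd40lg, was lower, against 20.8% and 22.3% of all genes. The members' median log2 fold change was 2.69 and 2.71, also when Tnfsf11 and Tnfsf14 were set to their bounds, and that of all genes was -0.13 and -0.05. The 2 comparisons share the cells-alone libraries. Tnfsf11 and Tnfsf14 had no counts in those libraries and passed the filter through the co-cultures, so they could only be called higher. The p-values given are from edgeR's quasi-likelihood test with Benjamini-Hochberg adjustment over all genes tested and with collection day as a term. All cells-alone libraries are of day 1, so a log2 fold change over them from this fit refers to day 1. It is not the ratio of the group means, which for Lta was 36.74 with control and 50.33 with STZ macrophages. The threshold for a call was an adjusted p of 0.05.

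Lta and Tnf, neighbouring genes for secreted lymphotoxin-alpha and TNF, rose in both co-cultures. Lta was at 21.08, 11.89, 11.98 and 14.58 CPM in cells-alone replicates 1 to 4. It was at 471.3, 351.9, 887 and 477.4 CPM in control-macrophage replicates 1 to 4, and at 351.5, 1011, 1041, 958.5 and 383 CPM in STZ-macrophage replicates 1 to 5. Every co-culture library was far above every cells-alone library, and within the co-cultures the 4 day 2 libraries were the highest. The log2 fold change over the cells alone was 4.80 (SE 0.23, adjusted p = 2.33e-08), a 27.9-fold difference, with control macrophages, and 4.72 (SE 0.24, adjusted p = 4.97e-08), or 26.3-fold, with STZ macrophages. Tnf was at 2.455, 4.482, 4.828 and 9.441 CPM in the cells alone. With control macrophages it was at 55.98, 62.53, 108.1 and 82.7 CPM, and with STZ macrophages at 49.81, 88.38, 98.36, 87.46 and 54.91 CPM. The lowest co-culture library was thus above the highest library of cells alone. The log2 fold change of Tnf was 3.64 (SE 0.36, adjusted p = 6.09e-06) with control and 3.33 (SE 0.37, adjusted p = 1.79e-05) with STZ macrophages.

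Ltb codes for the membrane-bound partner of lymphotoxin-alpha in the surface heterotrimer that binds the lymphotoxin-beta receptor. It lies next to Tnf and was not called in any comparison with all libraries in the fit. Ltb was at 38.9, 737.7, 33.53 and 23.35 CPM in the cells alone and at 22.41, 19.9, 18.94 and 21.59 CPM with control macrophages. With STZ macrophages it was at 375.4, 10.55, 12.73, 13.49 and 86.94 CPM. Every library with control macrophages was below every one of the cells alone. The STZ-macrophage libraries split by day, the 2 of day 1 being above and the 3 of day 2 below all control-macrophage libraries. Its log2 fold change over the cells alone was -2.32 (SE 1.34, adjusted p = 0.176) with control macrophages and -0.64 (SE 1.08, adjusted p = 0.658) with STZ macrophages. Without cells-alone replicate 2 these values were 0.40 (adjusted p = 0.738) and 2.26 (adjusted p = 0.0387), and without control-macrophage replicate 3 they were -3.20 (adjusted p = 0.0413) and 0.42 (adjusted p = 0.796).

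The libraries with much Ltb also stood apart in other genes. The first principal component of the 4 cells-alone libraries, computed over 8281 genes without the members, held 65.29% of their variance, and every library was scored on it. The 4 highest scores were 64.41 (cells-alone replicate 2), 50.37 (STZ-macrophage replicate 1), 37.27 (STZ-macrophage replicate 5) and 26.83 (cells-alone replicate 1), and these 4 were in the same order the highest in Ltb. All other libraries scored 7.403 or less. The same 4 libraries had the highest mean GC content of counted genes, at 48.96% to 49.12%, against 47.58% to 48.85% in the rest, and Ltb had the highest GC content of the members, at 62.0%. With the score as a term in the fit, the log2 fold change of Ltb between the STZ-macrophage and control-macrophage co-cultures was -0.71 instead of 1.68, and with GC content as an offset it was 0.46. Neither was called.

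**Figure D2:**
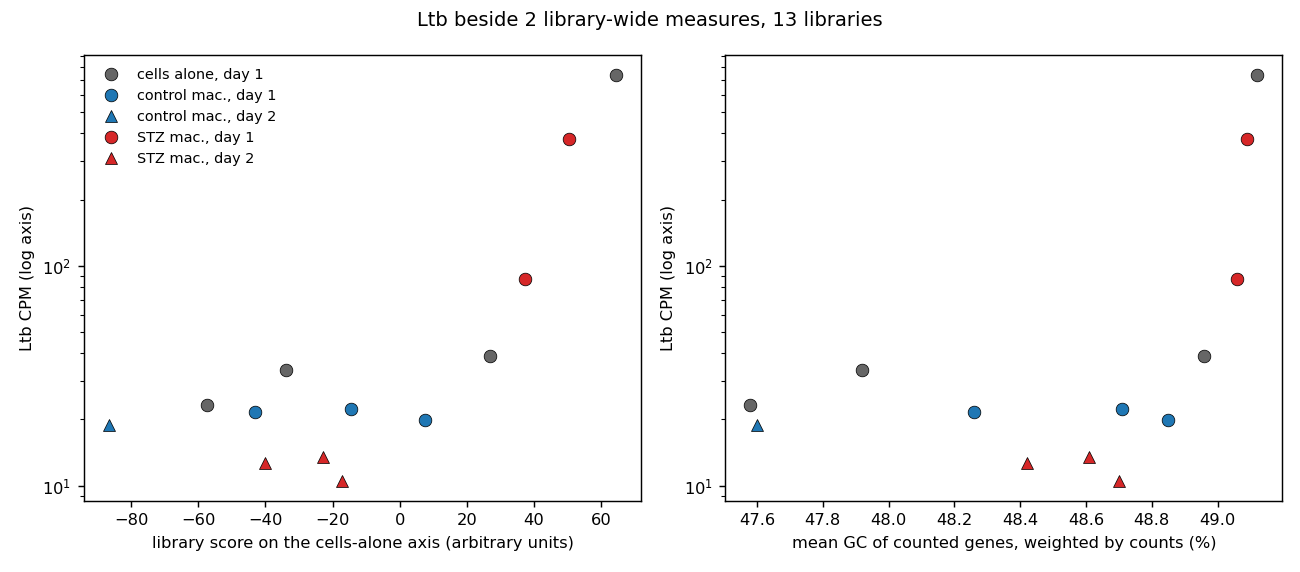
Ltb CPM (log axis) of the 13 libraries against the library's score on the cells-alone axis (left) and its mean GC content (right); colour gives the group and shape the day. The highest Ltb values, 737.7, 375.4 and 86.94 CPM, belong to the libraries with the highest scores and the highest GC content.

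Tnfsf4 and Tnfsf8, ligands of receptors that costimulate T cells, rose in both co-cultures. Tnfsf4 codes for OX40 ligand, known mainly from antigen-presenting cells and also made by activated T cells. It was at 0.03068, 0.6212, 3.465 and 1.374 CPM in the cells alone. With control macrophages it was at 22.76, 30.94, 80.83 and 32.7 CPM, and with STZ macrophages at 16.48, 61.06, 72.38, 52.88 and 17.48 CPM. No co-culture library reached down to the cells alone, and in both co-cultures the day 2 libraries were the highest. Its log2 fold change was 4.30 (SE 0.78, adjusted p = 0.000756) with control and 3.69 (SE 0.80, adjusted p = 0.0027) with STZ macrophages.

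Tnfsf8 codes for CD30 ligand. It was at 112, 36.65, 51.68 and 65.24 CPM in the cells alone, at 189.1, 179.8, 236.5 and 218.9 CPM with control macrophages, and at 130.6, 217.8, 222.3, 179.9 and 134.7 CPM with STZ macrophages. Again no co-culture library fell within the range of the cells alone, though the lowest were not far above it. The log2 fold change was 1.51 (SE 0.29, adjusted p = 0.00102) with control and 1.08 (SE 0.31, adjusted p = 0.0138) with STZ macrophages.

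Tnfsf14 codes for LIGHT, a ligand of HVEM and of the lymphotoxin-beta receptor, and Tnfsf11 for RANK ligand. Neither had a single count in the 4 libraries of cells alone, where 3 counts over the group correspond to 0.02237 CPM. Tnfsf14 was at 2.685, 1.347, 0.3084 and 1.78 CPM with control macrophages and at 1.249, 1.77, 1.679, 2.433 and 1.275 CPM with STZ macrophages. Tnfsf11 was at 1.756, 1.872, 2.868 and 1.747 CPM with control macrophages and at 3.331, 3.103, 3.241, 4.034 and 2.549 CPM with STZ macrophages. Both were thus detected in every co-culture library, at low levels. Against that floor, Tnfsf11 was at least 92.1-fold higher with control macrophages (adjusted p = 5.47e-06) and at least 145.3-fold higher with STZ macrophages (adjusted p = 4.59e-06). Tnfsf14 was at least 68.4-fold higher (adjusted p = 0.000165) and at least 75.1-fold higher (adjusted p = 0.000209), respectively. The floor covers counting error only.

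Cd40lg, whose product CD40 ligand licenses antigen-presenting cells and helps B cells, was abundant without macrophages. It was at 234.6, 176.8, 382.9 and 377.4 CPM in the cells alone and at 193.8, 149.9, 375.9 and 235.2 CPM with control macrophages. With STZ macrophages it was at 118.9, 210.8, 235.6, 235.1 and 121.2 CPM. The groups overlapped, with the lowest values in the 2 day 1 libraries of STZ macrophages. Cd40lg was lower with STZ macrophages than in the cells alone by edgeR, with a log2 difference of -1.30 (SE 0.27, adjusted p = 0.00198). Without the day term this was -0.67 (adjusted p = 0.11), and in the day 1 libraries alone -1.06 (adjusted p = 0.0535). With control macrophages the value was -0.60 (SE 0.24, adjusted p = 0.0634), and 6 alternatives called it lower. These were scaling by library totals (-0.90, adjusted p = 0.00405), GC offsets (-0.67, adjusted p = 0.017), the axis score (-0.71, adjusted p = 0.000176), and leaving out cells-alone replicate 1 (-0.68, adjusted p = 0.0485), replicate 2 (-0.77, adjusted p = 0.00877) or both (-0.97, adjusted p = 0.000453). In the authors' deposited log2 table, limma gave 0.47 (adjusted p = 0.174) with control and -0.10 (adjusted p = 0.814) with STZ macrophages.

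Tnfsf9 and Tnfsf10 each passed the test in 1 co-culture. Tnfsf9, the gene of 4-1BB ligand, was at 7.394, 6.479, 3.465 and 1.286 CPM in the cells alone and at 6.748, 10.48, 3.3 and 6.428 CPM with control macrophages. With STZ macrophages it was at 16.09, 15.93, 11.64, 14.54 and 18.06 CPM, above every other library. Its log2 fold change over the cells alone was 2.10 (SE 0.53, adjusted p = 0.00659) with STZ macrophages and 0.63 (SE 0.46, adjusted p = 0.287) with control macrophages. With the replicate block the call with STZ macrophages was lost, at 1.95 (adjusted p = 0.0803). In the authors' deposited log2 table, limma gave 0.70 (adjusted p = 0.233) with STZ macrophages and a lower value with control macrophages, -1.04 (adjusted p = 0.0467). With control macrophages Tnfsf9 was called higher with the axis score as a term (1.09, adjusted p = 0.0153) and without cells-alone replicates 1 and 2 (1.59, adjusted p = 0.0138). Tnfsf10, the gene of the death ligand TRAIL, was at 5.062, 9.452, 16.38 and 31.48 CPM in the cells alone and at 58.39, 48.54, 65.63 and 57.45 CPM with control macrophages. With STZ macrophages it was at 25.1, 47.89, 47.19, 36.37 and 24.88 CPM. The control-macrophage libraries were above all others, and the STZ-macrophage libraries overlapped the cells alone. The log2 fold change was 1.73 (SE 0.44, adjusted p = 0.0067) with control macrophages and 0.81 (SE 0.48, adjusted p = 0.199) with STZ macrophages. The value with STZ macrophages was called in 4 alternatives. It was 1.41 (adjusted p = 0.0115) without cells-alone replicate 4, 1.22 (adjusted p = 0.0327) without the day term, 1.62 (adjusted p = 0.0058) with the axis score, and 2.91 (adjusted p = 9.48e-06) by limma on the authors' deposited log2 table.

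**Figure D3:**
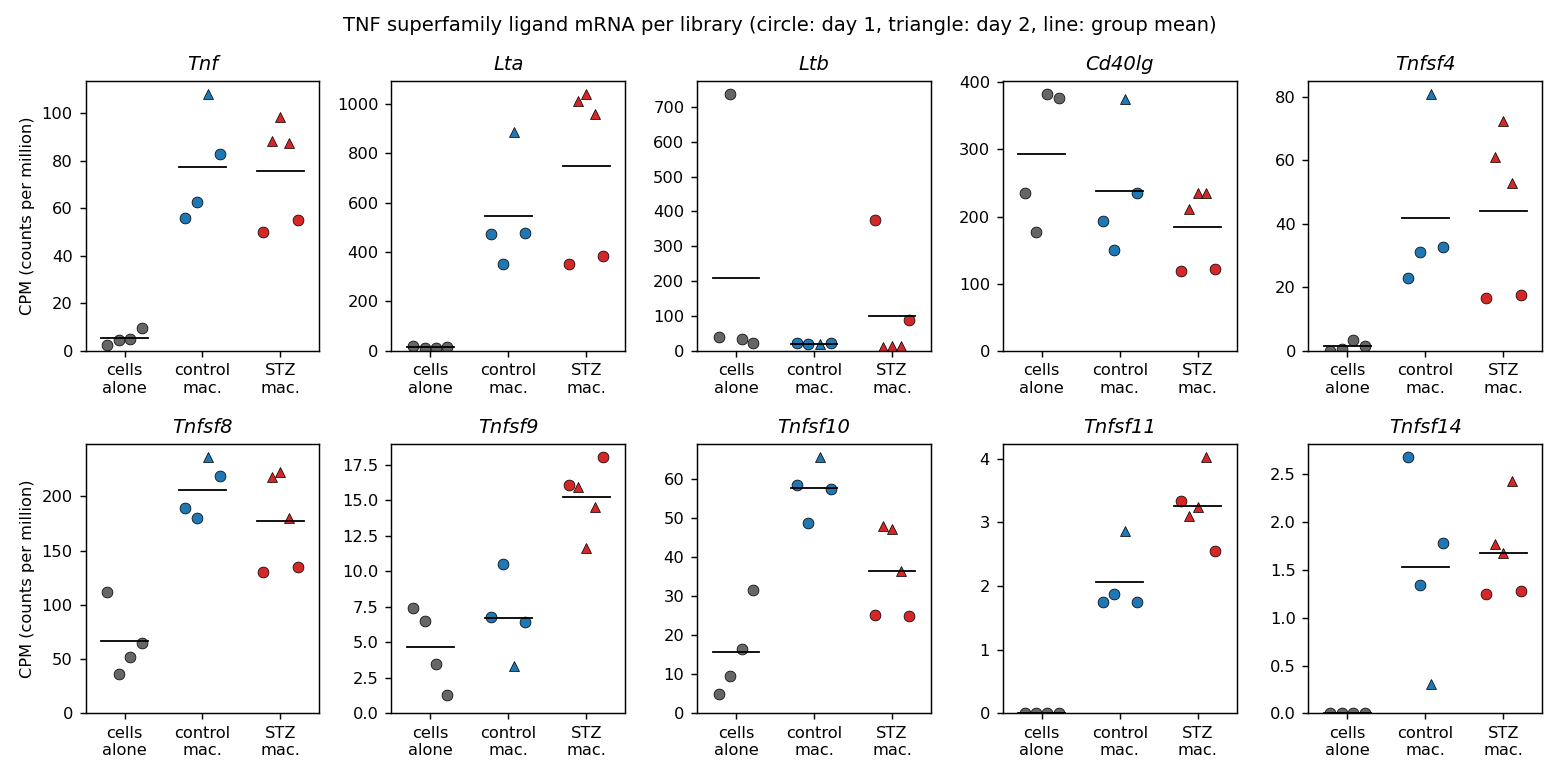
CPM of each ligand in each library, on linear axes that start at 0; circles are day 1, triangles day 2, and the line is the group mean. Tnf, Lta, Tnfsf4, Tnfsf8, Tnfsf11 and Tnfsf14 are higher in all co-culture libraries than in the cells alone, Tnfsf9 is highest in the STZ-macrophage libraries, and Tnfsf10 in the control-macrophage libraries.

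The study's own contrast was between the 2 kinds of macrophage. By edgeR with all 13 libraries, 0 of the 10 ligands differed between the STZ-macrophage and control-macrophage co-cultures, and 51 genes, 0.323% of those tested, did. At an unadjusted p below 0.05 by edgeR there were 2 of the 10 members, Tnfsf9 and Cd40lg. Of all 15781 genes tested 3604 were below it too, a similar share. DESeq2 called 1 member, Tnfsf9, and 4.12% of all genes. With only the 9 co-culture libraries in the fit, edgeR called 3 members, against 18.1% of the 14881 genes then tested. The members' median log2 fold change was -0.20, and that of all genes was -0.13. Scaling by library totals moved the all-gene median to 0.07, so the small differences below are of the size that the scaling shifts.

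Tnfsf9 and Tnfsf10 were the 2 members whose co-culture groups did not overlap. The share of all genes with groups apart was not computed, so the separation is a description only. The Tnfsf9 mean was 15.3 ± 2.38 CPM (SD, n = 5) with STZ macrophages and 6.74 ± 2.94 CPM (SD, n = 4) with control macrophages, and every STZ-macrophage library was above every control-macrophage library. The log2 fold change was 1.47 (SE 0.50, adjusted p = 0.16) by edgeR with all libraries. It was 1.64 (SE 0.30, adjusted p = 0.0135) with the 9 co-cultures and 1.57 (SE 0.45, adjusted p = 0.0195) by DESeq2. Within day 1 the value was 1.11 (SE 0.57, adjusted p = 0.349) and within day 2, which has 1 control-macrophage library, 2.09 (SE 0.85, adjusted p = 0.307). The direction was thus the same on both days. With the cells-alone axis score as a term it was 0.47 and not called, but that term can take up a true difference between the co-cultures.

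Tnfsf10 and Cd40lg were the members called lower with STZ macrophages in the fit of the 9 co-cultures. Tnfsf10 averaged 36.3 ± 11.3 CPM (SD, n = 5) with STZ and 57.5 ± 7.003 CPM (SD, n = 4) with control macrophages. Every STZ-macrophage library was below every control-macrophage library, but narrowly, at 47.89 CPM in STZ-macrophage replicate 2 and 48.54 CPM in control-macrophage replicate 2. The log2 fold change of Tnfsf10 was -0.93 (SE 0.44, adjusted p = 0.23) with all libraries and -0.74 (SE 0.18, adjusted p = 0.0271) with the 9 co-cultures. Cd40lg averaged 184.3 ± 59.6 and 238.7 ± 97.9 CPM, with overlapping groups. Its values were -0.70 (SE 0.24, adjusted p = 0.16) and -0.51 (SE 0.14, adjusted p = 0.0398). With the axis score as a term the 2 genes stood at -0.10 and -0.09 and were not called. Here too the term can take up a true difference between the co-cultures.

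The other ligands were not called in either fit. Tnf was at 75.8 ± 21.9 CPM with STZ and 77.3 ± 23.4 CPM with control macrophages, a log2 difference of -0.31 (SE 0.32, adjusted p = 0.547). Lta stood at -0.08 (SE 0.21, adjusted p = 0.816), with a sign that depended on the scaling (0.12 by library totals). Ltb had the widest error, at 1.68 (SE 1.13, adjusted p = 0.36). For Tnfsf11 the value was 0.54 (SE 0.37, adjusted p = 0.381), for Tnfsf14 0.36 (SE 0.81, adjusted p = 0.795), for Tnfsf8 -0.42 (SE 0.28, adjusted p = 0.361) and for Tnfsf4 -0.62 (SE 0.69, adjusted p = 0.584). At these errors a difference of the size of the SE was not detectable.

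**Figure D4:**
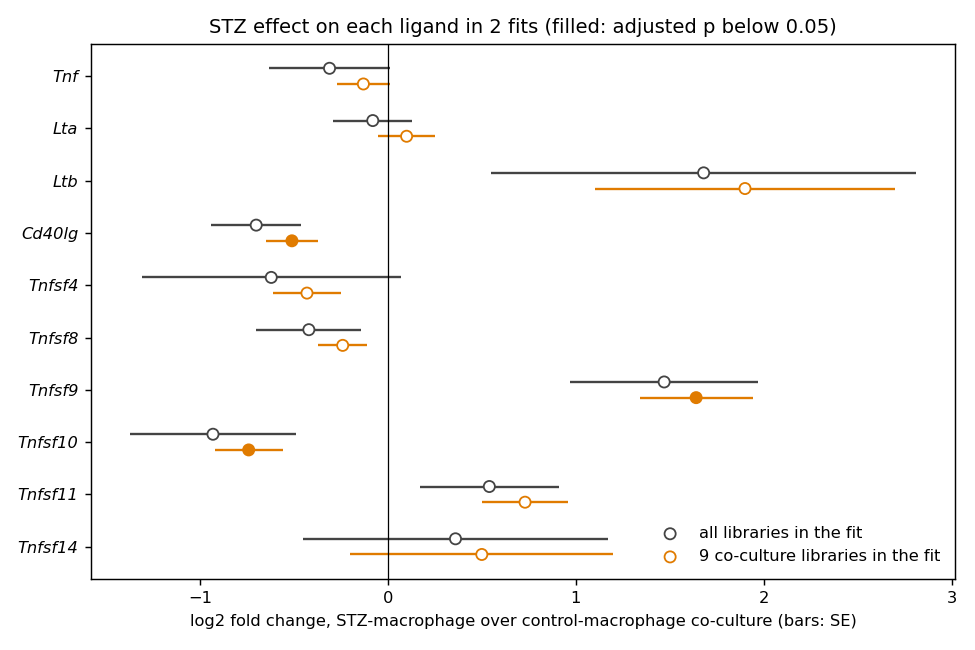
Log2 fold change of each ligand between STZ-macrophage and control-macrophage co-culture, with its SE as a bar, from the fit of all 13 libraries (grey) and of the 9 co-cultures (orange); filled points have an adjusted p below 0.05. Tnfsf9 (1.64), Tnfsf10 (-0.74) and Cd40lg (-0.51) are filled in the fit of the 9 co-cultures and none in the fit of all libraries.

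Of the 10 ligands, edgeR called 1 between the collection days with all libraries in the fit, Lta. It was higher on day 2 than on day 1, with a log2 difference of 1.29 (SE 0.21, adjusted p = 0.0249) by edgeR, and over all genes 3.15% were called. The call was lost in 7 of 13 fits that left out 1 library, namely control-macrophage replicates 1 and 2 and each of the 5 STZ-macrophage replicates, with values of 1.11 to 1.32 over the 13 fits. It was also lost with the replicate block, at 1.64 (adjusted p = 0.787), and with the axis score as a term, at 1.27 (adjusted p = 0.214). Cd40lg stood at 0.94 (SE 0.24, adjusted p = 0.0513), Tnf at 0.76 (SE 0.32, adjusted p = 0.142) and Tnfsf4 at 1.73 (SE 0.70, adjusted p = 0.129). DESeq2 called Cd40lg too (0.88, adjusted p = 0.0222). With only the 9 co-cultures edgeR also called Tnf (0.59, adjusted p = 0.0163), Cd40lg (0.76, adjusted p = 0.00732) and Tnfsf4 (1.55, adjusted p = 0.00349) higher. Ltb was called lower there (-2.67, adjusted p = 0.0394). Over the alternatives 2 to 4400 of all genes were called between the days. In the co-cultures of day 2 Lyz2 was at 11.06 to 45.63 CPM and in those of day 1 at 1.205 to 7.453 CPM. The part of such macrophage RNA in the values of day 2 was not tested.

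The effect of STZ macrophages was also compared between the days. For this difference edgeR called 0 of 10 members, and 1 gene of all, or 0.00634%; the only member at an unadjusted p below 0.05 was Tnfsf14 (3.27, SE 1.12, adjusted p = 0.371), and DESeq2 called 0. Tnfsf14 rests there on control-macrophage replicate 3, the single control library of day 2, at 0.3084 CPM. For Ltb the difference was -4.07 (SE 1.87), and without cells-alone replicate 2 it was -4.02. It rests on the same single control library.

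Of the 11 receptors of these ligands, 9 had enough counts for a test, and Ltbr and Tnfrsf11a, the receptors of lymphotoxin-beta and RANK ligand, did not. With control macrophages 3 receptors were higher than in the cells alone and 0 lower, and with STZ macrophages 5 were higher and 1 lower; of all genes 23.1% and 22%, and 20.8% and 22.3%, were called in these directions. Tnfrsf9, the receptor of 4-1BB ligand, went from 0.598 ± 0.404 CPM (SD, n = 4) to 476.5 ± 362.0 with control and 625.7 ± 225.6 with STZ macrophages (adjusted p = 7.32e-07 and 8.75e-07 by edgeR). Tnfrsf4, the OX40 gene, went from 3.29 ± 1.94 CPM to 280.5 ± 112.3 and 335.8 ± 82.7 (adjusted p = 3.57e-07 and 4.84e-07). These 2 receptors thus rose in both co-cultures, as did Tnfsf4, while Tnfsf9 itself reached 18.06 CPM at most. Tnfrsf8 was also called higher in both. Only with STZ macrophages did edgeR call Tnfrsf1b (log2 fold change 2.07, adjusted p = 0.0256) and Tnfrsf11b (adjusted p = 0.0223) higher. Tnfrsf8 and Tnfrsf11b had no counts in the cells alone and could only be called higher. Tnfrsf1a, Cd40 and Tnfrsf10b were called in neither co-culture.

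Tnfrsf8, the CD30 gene, was the only receptor called between the co-cultures. It had no counts in the cells alone, was at 4.17, 2.74, 6.85 and 7.42 CPM with control macrophages, and at 33.11, 19.02, 19.44, 27.65 and 38.35 CPM with STZ macrophages. The groups did not overlap, the log2 fold change was 2.41 (SE 0.41), and edgeR's adjusted p rounded to 0.05, just under the threshold. With the replicate block, and without STZ-macrophage replicates 2 and 4, edgeR called 0 genes of all between the co-cultures. The same held without control-macrophage replicate 4, STZ-macrophage replicate 1 or STZ-macrophage replicate 5. The Tnfrsf8 call, like every other call between the co-cultures, was thus lost in these fits. Its ligand Tnfsf8 stood at -0.42 in the same comparison. Tnfrsf14, the HVEM gene, was at 65.7 ± 19.9, 42.4 ± 3.92 and 19.8 ± 2.35 CPM in the cells alone and then with control and STZ macrophages. It fell by 1.68 on the log2 scale with STZ macrophages against the cells alone (SE 0.28, adjusted p = 0.000362 by edgeR).

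Of 8 further ligands of the superfamily 4 could be tested (Fasl, Tnfsf13b, Tnfsf15 and Cd70). All 4 were higher than in the cells alone in both co-cultures, as were 23.1% and 20.8% of all genes. Between the co-cultures 0 were called. Fasl, the Fas ligand gene, was the most abundant of them, at 11.8 ± 3.16 CPM in the cells alone, 84.5 ± 88.6 with control and 115.6 ± 35.5 with STZ macrophages. Cd70 had no counts in the cells alone and averaged 0.199 and 0.556 CPM in the co-cultures. Tnfsf15 and Tnfsf13b averaged 0.0111 and 0.159 CPM in the cells alone. Cd70, Tnfsf15 and Tnfsf13b passed the filter through their co-culture counts, so the direction of their calls was largely set by the filter.

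The counts of other gene groups stand beside the same background, in which 23.1% of all genes were called higher and 22% lower with control macrophages, and 20.8% and 22.3% with STZ macrophages. Of 11 tested NFAT and T cell receptor response genes, 6 were higher and 1 (Nfatc3) lower in each co-culture. Il2ra, the high-affinity IL-2 receptor chain, had no counts in the cells alone and averaged 2050.0 and 2009.0 CPM. Like Egr3, also without counts there, it could only be called higher. Nr4a3 had counts in the cells alone only in replicate 4, at 0.4384 CPM, so the direction of its calls was largely set by the filter. The early activation marker Cd69 went from 26.5 ± 16.0 CPM to 232.9 ± 117.5 and 190.2 ± 31.2. Of 9 genes for proteases and regulators of ligand messages and proteins, 3 RNA-decay factors were lower in both co-cultures. Zfp36 (tristetraprolin, which binds AU-rich elements such as those of Tnf mRNA) fell by 2.10 on the log2 scale with control macrophages (SE 0.28, adjusted p = 6.66e-05 by edgeR). Zfp36l2 and Rc3h1 (roquin-1) fell by 2.29 and 2.21. With STZ macrophages 3 more, the proteases Furin and Adam10 and Rhbdf2 (iRhom2, a partner of the protease that sheds TNF), were higher than in the cells alone. Furin was also the only one of the 9 called between the co-cultures, at 3.40 (SE 0.59, adjusted p = 0.0369 by edgeR), with 40.2 ± 48.9 CPM against 3.36 ± 1.39. STZ-macrophage replicate 1 had 103.4 CPM and replicate 5 had 83.01 CPM. These 2 libraries have the highest axis scores of the co-cultures. The other 3 STZ-macrophage libraries had 4.065 to 5.328 CPM, beside the 1.48 to 4.696 CPM of the control-macrophage libraries. Within day 2 the difference was 1.71 (SE 0.71, adjusted p = 0.32 by edgeR).

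Among 16 NF-kB targets and inhibitors 3 were higher and 3 lower in each co-culture against the cells alone, a share near that of all genes, and 0 were called between the co-cultures. Icam1 was among those higher, and Rela and Relb among those lower, with log2 fold changes of -1.13 and -2.57 with control macrophages. Among 13 receptor adaptors and death-signalling genes 1 was higher and 3 were lower in each co-culture. Of all genes 23.1% were higher and 22% lower with control macrophages, and 20.8% and 22.3% with STZ macrophages. The share of lower genes in this list was thus near that of all genes, and the share of higher genes was below it. Casp8 was higher, at 1.10 with control macrophages. Traf5, Cflar and Map3k14 were lower with control macrophages, and Cflar, Birc2 and Birc3 with STZ macrophages. The caspase-8 inhibitor Cflar was at -1.08 with control and -1.28 with STZ macrophages.

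Across the 9 co-culture libraries Tnf, Lta, Cd40lg, Tnfsf4 and Tnfsf8 varied together, with Pearson correlations of log2 CPM between 0.69 and 0.96, and Tnfsf9 and Tnfsf10 went opposite ways, at -0.81. Among 7371 or 7372 other genes searched, those most like Tnf were Eif2s1 and Mtrf1 (r = 0.988 for each), and those most like Lta were Pop1 (0.994) and Nop2 (0.992). Ltb was closest to Mrps15 and Maf1 (0.993 for each), Cd40lg to Vps50 (0.994) and Ssb (0.992), Tnfsf4 to Nme6 and Rack1 (0.995 for each), and Tnfsf8 to Bora (0.989) and Dhx9 (0.986). Tnfsf9 was closest to Abcb9 (0.994) and Susd3 (0.987), Tnfsf10 to Mlst8 and Nqo1 (0.987 for each), Tnfsf11 to Cd200r1 (0.938) and Ramp3 (0.936), and Tnfsf14 to Impdh2 (0.964) and Rbbp7 (0.951). These values describe 9 libraries that share their day and group structure.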

How the data were processed

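Bulk RNA-seq of 13 libraries was analysed. Per the labels' protocols, cDNA came from a SMARTer kit, which does not mark strand, and paired-end reads were aligned to GRCm38. DESeq2 is named in the submitters' processing notes, as is GRCm38; none of these sources gives the aligner, counter or annotation. The main table holds estimated counts that the authors deposited without normalization; 32.1% of its positive values are not whole (tolerance 1e-09), and they were rounded. The authors also deposited log2 values after an adjustment not given in the sources used here, and these served only as an alternative, with limma. All 13 columns matched a library by name, with 0 unmatched.

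Counts were fitted with edgeR 4.0.16 in R 4.3.3 (filterByExpr by group, TMM scaling, robust quasi-likelihood test, group and day as terms, all 13 libraries), with Benjamini-Hochberg adjustment over 15781 genes. CPM uses TMM-scaled totals. SE is the fitted log2 difference divided by the root of F. The test was run on simulated counts with the same spread for every gene and no day effect. These differ from the real counts, so the run does not show how the test behaves here. Day 2 has 1 control-macrophage library, which in the fit by group and day is assumed to vary like the others. The members, gene lists and markers were chosen with earlier results of these data known. All members and receptors are named, from other lists up to 4 genes with the smallest unadjusted p, and per member the 2 genes of highest correlation; single cell type markers were named after their values were seen. Alternatives were RLE scaling, library totals, DESeq2 1.42.0, other count filters, limma 3.58.1 on the authors' log2 table, a replicate block, no day term, the 9 co-cultures, day 1 only and leaving out libraries; the axis score, GC offsets and leaving out cells-alone replicates 1 and 2 were added after seeing the data, as was leaving out STZ-macrophage replicates 2 and 4 against the cells alone. Same-numbered libraries from cells alone and from control macrophages correlated in their deviations from the group means (0.161 to 0.352 in 4 of 4 pairs). Libraries with different numbers reached 0.433, so these values do not establish pairing by number, and the labels do not state it. The replicate block uses the numbers as an alternative only. With 17.3 to 61.3 M counts per library, 3 counts correspond to 0.04926 to 0.1331 CPM.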

Additional observations from a re-analysis of the deposited data

Results flagged for a closer look

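In 3 of 28 groups of 4 or 5 libraries, 1 library lay far from the rest of its group; chance alone gives about 1 in 20 groups. Ltb was at 737.7 CPM in cells-alone replicate 2, where the next library was at 38.9 CPM, a gap of 0.978 of the group's range. Ltb was also at 375.4 CPM in STZ-macrophage replicate 1, with the next at 86.94 CPM, a gap of 0.791 of the range. Tnfsf11 was at 2.868 CPM in control-macrophage replicate 3, the only control-macrophage library of day 2, with the next at 1.872 CPM, a gap of 0.888 of the range.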

How the results depend on the processing

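Of 1160 values of single ligands under an alternative, 1075 kept their direction and their side of the threshold. Against the cells alone, 7 to 9 ligands were called with control macrophages and 6 to 9 with STZ macrophages, while 5651 to 8647 and 3476 to 9789 of all genes were. Between the co-cultures the count was 0, except 1 by DESeq2 and 3 with the 9 co-cultures; over all genes these fits called 650 and 2698, against 51 with all libraries. Over all genes 0 were called with the block, without STZ-macrophage replicates 2 and 4 together, and without control-macrophage replicate 4, STZ-macrophage replicate 1 or STZ-macrophage replicate 5, where a count of 0 says nothing about the members. For day the count was 2 by DESeq2, 5 with the 9 co-cultures, 0 with the axis score and 0 to 3 without 1 library, with 2 to 4400 of all genes called over the alternatives. The difference between days rests on 1 control-macrophage library of day 2, so only its directions are given below. With the replicate block the counts were 7, 6, 0 and, for day, 0, and those over all genes lay within the ranges given here. The block rests on replicate numbers that were not shown to pair libraries of any of the groups. With it Tnfsf8 (0.91) and Tnfsf9 (1.95) lost their calls against the cells alone, and Lta lost that of day (1.64). The block changed no other call of a member.

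Directions turned as follows, and the cause was not tested. Between the co-cultures Lta was at 0.02 with RLE scaling and by DESeq2, 0.12 by totals and in the authors' log2 table, 0.11 without a filter, 0.45 without the day term, 0.10 with the 9 co-cultures, 0.07 without STZ-macrophage replicates 2 and 4, and -0.13 to 0.15 without 1 library. Tnfsf4 was at 0.39 with the block, 0.08 without the day term and 0.49 with the axis score, Tnfsf14 at -0.47 in day 1 and -0.47 to 0.97 without 1 library, Tnf at 0.24 and Ltb at -0.71 with the axis score. Against the cells alone with control macrophages, the authors' log2 table gave Cd40lg 0.47 and Tnfsf9 -1.04, and Ltb was at 0.54 without cells-alone replicates 1 and 2 and -3.20 to 0.40 without 1 library. With STZ macrophages Ltb was at 0.63 with the block, 0.44 in day 1, 2.43 without cells-alone replicates 1 and 2 and -2.13 to 2.26 without 1 library. In the authors' log2 table Tnfsf8 (0.67), Tnfsf9 (0.70) and Cd40lg (-0.10) were not called there. For day, the block gave Tnfsf4 -0.29 and Tnfsf10 -0.04, the axis score Ltb 0.13, Tnfsf9 0.55 and Tnfsf10 -0.37, GC offsets Tnfsf14 0.04, and leaving out 1 library Tnfsf14 -0.95 to 0.50. For the difference between days Cd40lg was at 0.14 by totals, 0.07 without a filter and -0.07 to 0.11 without 1 library. Without control-macrophage replicate 3 that difference could not be fitted. Depth limits Tnfsf4 in cells-alone replicate 1, which had 1 count.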
